A study of Homo sapiens with 2 samples.

Results

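The genes described here are the effectors and targets of the Hippo pathway in prostate cancer cells with and without Akt1 and Akt2. They were taken by symbol: the co-activators YAP1 and WWTR1 (the gene of TAZ), the transcription factors TEAD1, TEAD2, TEAD3 and TEAD4, and the target genes CYR61 (now CCN1), CTGF (now CCN2), AMOTL2 and LATS2. All 10 were found among the 19607 genes of the expression table, under the older symbols CYR61 and CTGF, and all 10 passed the filter of 10 reads summed over the 2 libraries. RNA was sequenced from CWR22rv1, a human prostate cancer line, as 1 library of cells labelled as an Akt1/2 knockout (Akt1/2 DKO) and 1 library of cells labelled wild type (control). The Akt1/2 DKO cells were made by transfecting Cas9 plasmids with guides against Akt1 and Akt2 together with a plasmid for puromycin selection, and monoclonal cells were then isolated. The labels do not say which clone was sequenced, nor how the control cells were handled. No difference below has a replicate check, and the knockout, the isolation of a clone and the single library of each condition cannot be told apart.

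The Hippo pathway restrains growth through a chain of kinases. MST kinases (STK3, STK4) activate LATS1 and LATS2, which phosphorylate YAP and TAZ and so keep them in the cytoplasm. When the chain is quiet, YAP and TAZ enter the nucleus, bind TEAD factors and switch on genes such as CYR61 and CTGF, and some targets, LATS2 and AMOTL2 among them, feed back to restrain YAP. Most of this control acts on the proteins, by phosphorylation and location, which RNA levels do not show.

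Estimated reads totalled 9970820 for control and 10718650 for Akt1/2 DKO. Fold changes divide Akt1/2 DKO by control after scaling with edgeR's TMM method. Their exact 95% intervals cover counting error only. A gene is called higher or lower from 1.5-fold upwards, which is a description and not a test. Reads of AKT1 went from 2645 in control to 591 in Akt1/2 DKO and reads of AKT2 from 2362 to 667. The prostate luminal markers were present in both libraries, with all 9 at 10 reads or more. Summed reads were 17 in control and 0 in Akt1/2 DKO for the 5 basal markers (TP63 and KRT5 at 0 in both), 2 and 2 for the 4 endothelial markers (CDH5 at 0) and 5 and 10 for the 3 leukocyte markers (CD3E at 0). The 6 neuroendocrine markers summed to 1420 and 1244 reads, mostly SYP (752 and 998) and CHGB (326 and 244), with INSM1 at 0 in both, while CHGA fell from 340 reads to 2. The 10 fibroblast markers, of which 3 were higher and 2 lower, summed to 53.4 FPKM in control and 8.91 in Akt1/2 DKO, mostly from VIM (48.9 and 4.17 FPKM), and the part of such shifts in the results was not tested.

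Of the 10 genes, 3 were higher in Akt1/2 DKO (CYR61, AMOTL2 and TEAD1) and 1 was lower (TEAD3). Over the whole table, 13318 genes passed the filter, and 30.9% of them reached 1.5-fold, 15.9% upwards and 15% downwards, so a count of 4 among 10 lies near that share. With at least 100 reads, which leaves out only CTGF of the 10 genes, the share over all genes was 23.2% (11.3% upwards, 11.9% downwards). At that depth the same 4 were called among 9. In FPKM with 0.1 added, 3 of the 10 and 30.7% of all genes reached 1.5-fold. In TMM-scaled reads, 3 of the 10 and 17.9% of all genes reached 2-fold. The median log2 fold change of the 10 genes was 0.26 with a prior count of 1, beside 0.01 for all genes. The counting interval left no change outside for 7 of the 10, and lay wholly past 1.5-fold for CYR61, AMOTL2 and TEAD3, against 16.5% of all genes. In bulk RNA, fewer cells that express a gene and less RNA of it per cell cannot be told apart.

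**Figure D1:**
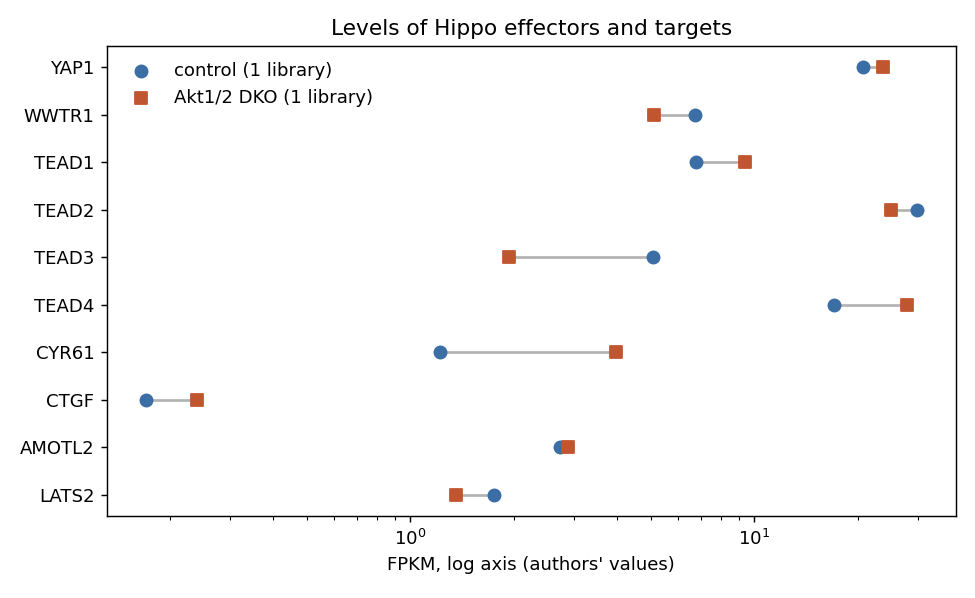
Level of each gene in FPKM (log axis) in the control library (circles) and the Akt1/2 DKO library (squares), with a grey line joining the libraries. TEAD2, YAP1 and TEAD4 lie between 17.05 and 29.7 FPKM in both libraries, CTGF lies at 0.17 and 0.24, and CYR61 and TEAD3 show the widest gaps.

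YAP1 was abundant and WWTR1 less so, and neither reached 1.5-fold. YAP1 (ENSG00000137693, chr11:102110461-102233423) had 569 reads in control and 712 in Akt1/2 DKO, which are 20.7 and 23.7 FPKM (fragments scaled to transcript length and to the size of the library). Its fold change was 1.13 (95% interval 1.01 to 1.26). WWTR1 (ENSG00000018408, chr3:149517235-149736714) had 194 and 184 reads, or 6.71 and 5.12 FPKM. On the log2 scale it changed by -0.23 (95% interval -0.52 to 0.07), which includes no change. The level of YAP1 was 3.09 times that of WWTR1 per length in control and 4.64 times in Akt1/2 DKO. In reads, which need no scaling for this ratio, WWTR1 relative to YAP1 in Akt1/2 DKO was 0.758 times its control value (95% interval 0.598 to 0.96). WWTR1 and AMOTL2 are the 2 of the 10 genes that lie on chromosome 3. Over the genes with at least 50 reads in both libraries together, the median log2 value there was -0.53. The medians of the other autosomes and X lay between -0.20 and 0.11. Against that chromosome median the value for WWTR1 was 0.31. Exons of YAP1 and WWTR1 overlap those of noncoding genes on the other strand (AP000942.2 and WWTR1-AS1). The co-activators summed to 27.4 FPKM in control and 28.9 in Akt1/2 DKO.

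VGLL4, a nuclear protein that competes with YAP for TEAD and also lies on chromosome 3, had 974 and 804 reads, a log2 fold change of -0.43. Its relatives VGLL1, VGLL2 and VGLL3 had at most 3 reads in either library.

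The TEAD factors bind DNA and carry YAP and TAZ to their genes. Their summed level differed little, 58.6 FPKM in control and 64.1 in Akt1/2 DKO, while the mix among the paralogs shifted. TEAD3 (ENSG00000007866, chr6:35473597-35497076) fell from 110 reads to 48, 2.54-fold lower (95% interval 1.79 to 3.64), and from 5.09 to 1.94 FPKM. TEAD1 (ENSG00000187079, chr11:12674591-12944483) rose from 336 to 573 reads, 1.54-fold (95% interval 1.34 to 1.77), just past the limit for a call. In FPKM, TEAD1 went from 6.78 to 9.4, a ratio of 1.39, which falls short of it. TEAD4 (ENSG00000197905, chr12:2959330-3040673) had 264 and 421 reads, 1.44-fold (95% interval 1.23 to 1.68), and 17.05 and 27.73 FPKM, a ratio of 1.63 that would pass 1.5-fold. TEAD2 (ENSG00000074219, chr19:49340595-49362457) had 583 and 526 reads, or 29.7 and 25 FPKM, with a log2 fold change of -0.30 (95% interval -0.47 to -0.12). Exons of TEAD2 overlap those of CD37 on the other strand, and reads of the pair may not be told apart since the use of strand is not given in the sources used here.

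The order of the TEAD genes therefore differed between the libraries. TEAD2 led in control with 50.7% of the summed TEAD level, followed by TEAD4 with 29.1%, TEAD1 with 11.6% and TEAD3 with 8.68%. In Akt1/2 DKO TEAD4 held 43.3%, TEAD2 39%, TEAD1 14.7% and TEAD3 3.03%. The counting intervals of TEAD4 and TEAD2 overlap in Akt1/2 DKO (25.1 to 30.5 and 22.9 to 27.3 FPKM), so their order there is not resolved, whereas in control they do not overlap. Ratios of reads between paralogs do not depend on library scaling, but they take no account of a transcript length that differs between the libraries. TEAD4 relative to TEAD2 was 1.77 times as high in Akt1/2 DKO as in control (95% interval 1.45 to 2.16), and TEAD1 relative to TEAD2 was 1.89 times as high (95% interval 1.57 to 2.27). TEAD3 relative to TEAD2 was 0.484 times its control value (95% interval 0.33 to 0.7). TEAD1 relative to TEAD4 was 1.07 times its control value, with an interval from 0.867 to 1.32 that includes no change. In FPKM the ratio of TEAD1 to TEAD4 went the other way, from 0.398 in control to 0.339 in Akt1/2 DKO. The ratios to TEAD2 kept their direction in FPKM, that of TEAD1 going from 0.228 to 0.376.

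**Figure D2:**
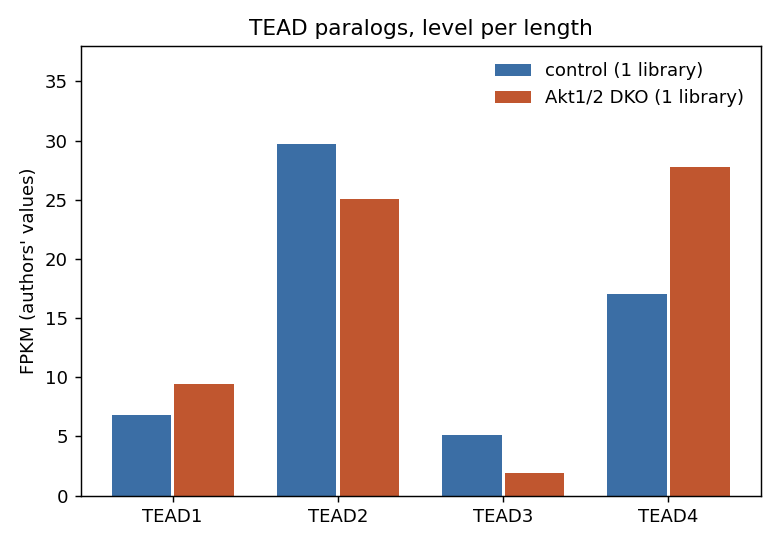
Bars give the FPKM of the TEAD paralogs in the control library and the Akt1/2 DKO library, 1 library each and without error bars. TEAD2 is the tallest bar of control (29.7), TEAD4 that of Akt1/2 DKO (27.73), and TEAD3 is the lowest in both (5.09 and 1.94).

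Among the targets, CYR61 rose, AMOTL2 rose in reads but not in FPKM, and LATS2 and CTGF did not reach 1.5-fold. CYR61 (ENSG00000142871, chr1:85580761-85583962) encodes a secreted matrix protein that binds integrins. It had 28 reads in control and 98 in Akt1/2 DKO, 3.16-fold higher (95% interval 2.06 to 4.99), and 1.22 and 3.96 FPKM. Relative to YAP1 its reads were 2.8 times as high in Akt1/2 DKO as in control (95% interval 1.79 to 4.49). CTGF (ENSG00000118523, chr6:131948176-131951373), a close relative and the most used readout of YAP, had only 4 and 6 reads, or 0.17 and 0.24 FPKM. The ratio was 1.35 with bounds of 0.321 and 6.52, so at this depth CTGF gives no direction, and its exon overlaps AL133346.1 on the other strand. In control 3.54% of the tested genes lay below it. LATS2 (ENSG00000150457, chr13:20973032-21061547), the kinase that YAP induces and that phosphorylates YAP in turn, had 97 and 81 reads. On the log2 scale it changed by -0.41 (95% interval -0.85 to 0.03).

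AMOTL2 (ENSG00000114019, chr3:134355874-134375479) encodes a junctional angiomotin protein that holds YAP outside the nucleus. It had 59 reads in control and 138 in Akt1/2 DKO, 2.11-fold higher (95% interval 1.54 to 2.91), and its value against the median of chromosome 3 was 1.61 on the log2 scale. Its FPKM was 2.72 in control and 2.88 in Akt1/2 DKO, a ratio of 1.06. An FPKM divides reads by a transcript length, so reads and FPKM part where the length that went into them differs between the libraries. The length implied by both values was 2.05 times as large in Akt1/2 DKO as in control for AMOTL2, relative to the median gene, and 0.912 to 1.16 times for the other 9 genes. Exons of AMOTL2 also overlap the pseudogene RPL39P5 on the same strand. A length ratio as high was seen in 24 of 10937 genes with at least 100 reads (0.219%). GENCODE release 29 lists 10 coding transcripts of AMOTL2, from 527 to 4521 bases, and the part of transcript choice in the difference was not tested. Whether AMOTL2 RNA was higher in Akt1/2 DKO therefore rests on the scale used.

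**Figure D3:**
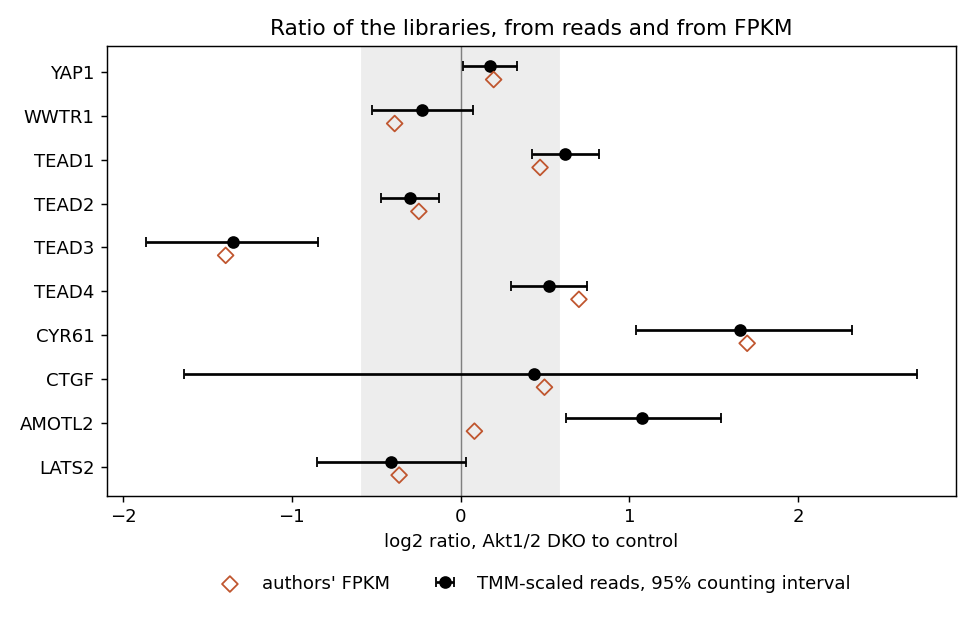
Log2 ratio of Akt1/2 DKO to control for each gene, from TMM-scaled reads (circles, with bars for the 95% counting interval) and from FPKM (open diamonds), with the range within 1.5-fold shaded. AMOTL2 is the gene whose diamond (0.08) lies outside the interval of its reads (0.63 to 1.54), and the interval of CTGF spans both directions.

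TEAD factors bind the core sequence GGAATG, and the start sites of these genes were read for it. The core was searched on both strands (CATTCC on the other) in RefSeq promoter windows of GRCh38.p14, from 250 bases before to 50 bases after a start. Windows were matched for 7 of the 10 genes (not for TEAD1, TEAD4 or CYR61). YAP1, CTGF, AMOTL2 and LATS2 hold it, and the windows of WWTR1, TEAD2 and TEAD3 do not. That is 4 of 10 windows, while 14% of all 35116 windows hold it. CTGF holds 3 copies, which do not overlap, and 0.128% of all windows hold at least that many. The 250 bases before the CTGF start (chr6:131951373-131951622, minus strand) are shown because CTGF has the most copies of the 7 genes searched and the fewest reads, with the cores in capitals:
CTGF: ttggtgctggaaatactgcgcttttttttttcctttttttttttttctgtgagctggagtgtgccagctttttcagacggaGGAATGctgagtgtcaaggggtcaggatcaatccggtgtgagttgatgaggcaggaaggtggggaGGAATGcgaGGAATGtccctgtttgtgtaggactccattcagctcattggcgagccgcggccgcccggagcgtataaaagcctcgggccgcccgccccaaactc
The 30 bases around the core in the other 3 genes are shown for comparison, each on the strand of its gene: YAP1 at chr11:102110273-102110302 (plus strand), AMOTL2 at chr3:134374499-134374528 (minus strand, in the second of its 2 windows) and LATS2 at chr13:21061560-21061589 (minus strand, just after its start).
YAP1: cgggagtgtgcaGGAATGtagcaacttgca
AMOTL2: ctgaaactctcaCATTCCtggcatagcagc
LATS2: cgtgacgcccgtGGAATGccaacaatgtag
Genes with the core thus include CTGF at 4 and 6 reads, LATS2 and YAP1 within 1.5-fold, and AMOTL2, and a match says nothing on binding in these cells.

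A broader view of YAP and TAZ output came from 22 conserved target genes, 4 of them already described. Of these, 17 had at least 10 reads, and 7 were higher and 3 lower in Akt1/2 DKO (58.8%, beside 30.9% of all genes), with a median log2 fold change of 0.34. Without the 4, the 18 other genes had 13 tested, 5 higher and 3 lower, with a median of 0.12. Except for the authors' annotation, this list and those below were written with earlier results of these data known. Their shares are descriptions and not tests. The largest rise with at least 20 reads was that of F3, tissue factor, which starts blood clotting, from 20 to 112 reads (5.05-fold, 95% interval 3.12 to 8.59). IGFBP3, a secreted protein that binds insulin-like growth factors, rose from 264 to 780 reads (2.66-fold, 95% interval 2.31 to 3.08). The kinase gene NUAK2 went from 101 to 213 reads and MYOF, a membrane repair protein gene, from 92 to 168. In the other direction, DOCK5 fell from 911 to 561 reads and ASAP1 from 290 to 186, both regulators of small GTPases in cell movement. TGFB2 had 0 and 10 reads, 3.01-fold higher against a floor of 3 reads. The 95% interval of the ratio of the reads as counted ran from 2.02 upwards. Here and for other genes with 0 reads in a library, that interval does not use the floor. ANKRD1, a nuclear ankyrin repeat protein gene much used as a YAP readout, had 1 and 0 reads, and the receptor gene AXL had 0 in both, so the much used readouts CTGF, ANKRD1 and AXL had at most 6 reads in either library. A count of 0 allows a level of up to 0.301 CPM (reads scaled to the library total) in control and 0.28 CPM in Akt1/2 DKO.

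**Figure D4:**
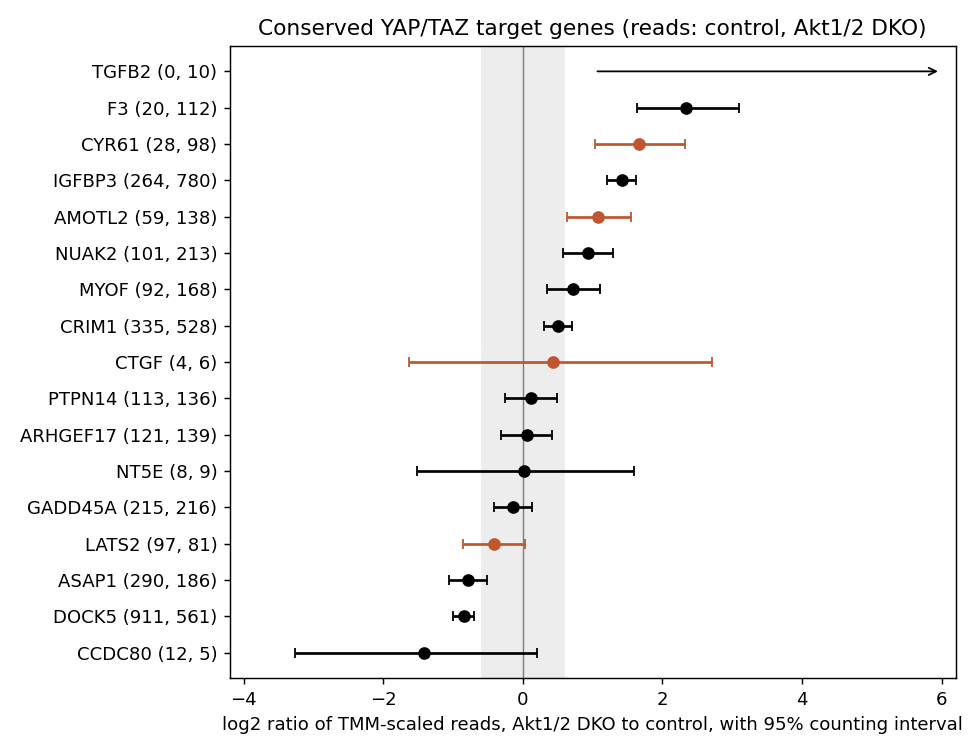
Log2 ratio of TMM-scaled reads, Akt1/2 DKO to control, for the 17 conserved YAP/TAZ target genes with at least 10 reads, with 95% counting intervals and the reads of control and Akt1/2 DKO beside each name. CYR61, AMOTL2, CTGF and LATS2 are coloured, the arrow marks a gene with 0 control reads, and 7 points lie right of the shaded range within 1.5-fold against 3 left of it.

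Other genes that have been tied to YAP moved in both directions. Of 13 listed, 10 had at least 10 reads, 5 higher and 4 lower (90%, beside 30.9% of all genes), with a median of 0.34. This list too was written with earlier results of these data known, so its share is a description and not a test. INHBA, a subunit of activins, had 0 and 226 reads, 67.9-fold higher against the floor, and the 95% interval of its read ratio ran from 54.8 upwards. EDN1, the vasoconstrictor endothelin, rose from 11 to 87 reads (7.13-fold, 95% interval 3.8 to 14.8) and MYC from 2556 to 4689. SNAI2, a repressor of epithelial genes, had 494 and 0 reads, 183-fold lower against the floor. The 95% interval of its read ratio, as a fall, ran from 148 upwards. AREG, a ligand of the EGF receptor, fell from 38 to 2 reads, and THBS1, a matrix glycoprotein, from 596 to 103 (6.42-fold lower, 95% interval 5.2 to 7.99). Within the CCN family, NOV (CCN3) rose from 31 to 68 reads as CYR61 did, and the 3 WISP genes had at most 4 reads in either library.

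AP-1 factors bind beside TEAD at many YAP-bound enhancers. Of 8 listed genes, 4 were higher and 0 lower (50%, beside 30.9% of all genes), with a median of 0.58. At least 100 reads were seen for 6 of the 8, and at that depth the share over all genes was 23.2%. ATF3 rose from 143 to 586 reads (3.7-fold, 95% interval 3.07 to 4.47), FOSL2 from 105 to 321 (2.76-fold, 95% interval 2.21 to 3.47), JUND from 437 to 736 (1.52-fold in reads, but 1.29-fold in FPKM) and FOSL1 from 3 to 15. For ATF3 and FOSL2 the interval lay wholly past 1.5-fold. JUN had 507 and 607 reads, JUNB 492 and 807 (1.48-fold) and FOS 156 and 117, all within 1.5-fold in reads. The ratio of FPKM for JUNB was 1.53, which would be a higher call. The FPKM of FOS went from 11.2 to 5.42, which would be a lower call. In FPKM 5 of the 8 reached 1.5-fold.

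Few genes of the kinase chain above YAP reached 1.5-fold. Of its 17 genes only WWC2 was higher and only WWC3 lower (11.8%, beside 30.9% of all genes), and the median was -0.11. At least 100 reads were seen for 16 of the 17, and at that depth the share over all genes was 23.2%. LATS1 had 490 and 569 reads (fold change 1.05, 95% interval 0.927 to 1.18), and NF2, the merlin scaffold that brings LATS to the membrane, had 773 and 883 (fold change 1.03, 95% interval 0.934 to 1.14). WWC2 and WWC3 are relatives of the adaptor KIBRA, the product of WWC1. WWC2 went from 2 to 115 reads, a ratio of 51.9 with a counting interval from 14 to 433, WWC3 fell from 210 to 110, and WWC1 had 1328 and 1363.

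Of 18 genes for junctional and cytoplasmic proteins that act on YAP or LATS, 4 were higher and 4 lower (44.4%, beside 30.9% of all genes). Their median was 0.17, and in FPKM 6 reached 1.5-fold. At least 100 reads were seen for 17 of the 18, and at that depth the share over all genes was 23.2%. The angiomotins parted, since AMOTL1 fell from 106 to 36 reads (3.26-fold lower, 95% interval 2.22 to 4.91) while AMOT rose from 115 to 217 (1.7-fold, 95% interval 1.35 to 2.15). The ratio of FPKM for AMOT was 1.39. The LIM proteins LIMD1 and WTIP, which bind LATS, fell from 2298 to 1042 and from 34 to 7 reads. Of 7 genes listed with the giant cadherins upstream, 6 had at least 10 reads, 4 higher and 0 lower (66.7%, beside 30.9% of all genes). Only 3 of the 7 had at least 100 reads. FAT1 had 3 and 2378 reads and FAT4 rose from 40 to 89.

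The authors' annotation assigns 153 genes to the Hippo signaling pathway, 8 of the 10 among them, and 125 had at least 10 reads. Of these, 31 were higher and 23 lower (43.2%, beside 30.9% of all genes), with a median of 0.04. Lower genes made up a larger share on chromosome 3. Of the 9 tested genes that lie there, 6 were lower and 0 higher (LIMD1, DLG1, TGFBR2, DVL3, CTNNB1 and GSK3B), and of the 116 elsewhere 17 were lower and 31 higher. Over all genes, 46.7% of 754 on chromosome 3 were lower, against 13.1% of 12564 elsewhere. The part of chromosome 3 in the lower calls of the pathway was not tested.

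**Figure D5:**
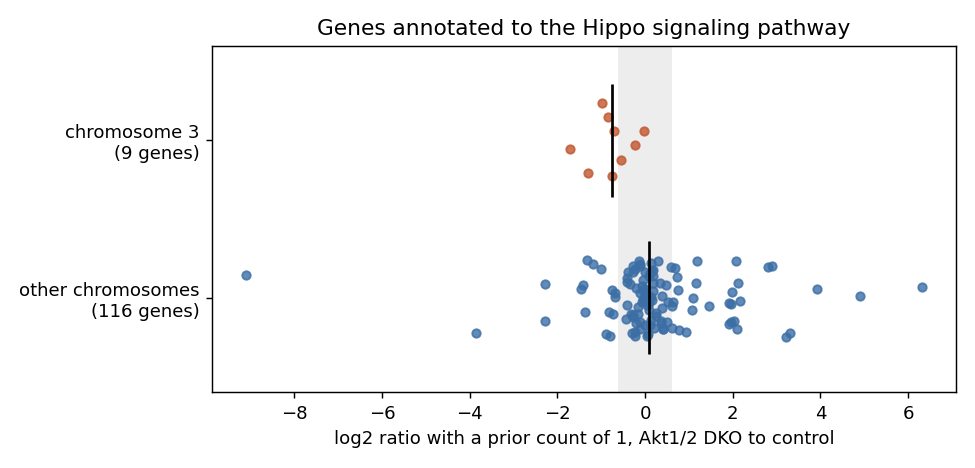
Each point is a gene annotated to the Hippo signaling pathway, placed by its log2 ratio of TMM-scaled reads with a prior count of 1, with vertical lines at the medians and the range within 1.5-fold shaded. The median of the 9 genes on chromosome 3 is -0.76 and that of the 116 others 0.09.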

How the data were processed

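RNA sequencing gave 1 library per condition. Deposited were the authors' estimated counts for each gene, not normalized, beside their FPKM values. Per the labels, processing used fastp 0.20.0, TopHat, Cufflinks and edgeR with the build GRCh38.p10; the counting tool and the use of strand are not given in the sources used here. The authors' fold changes, p-values and FDR, their ontology summary and their correlation were not used.

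Counts were rounded (11.1% of genes were not whole, the 10 genes all were). TMM factors (edgeR 4.0.16, R 4.3.3) over 13318 genes set the library ratio, Akt1/2 DKO to control, at 1.11. With 1 library per group no test or p-value is given; Clopper-Pearson intervals (scipy 1.17.1, Python 3.11.15) and floors of 3 reads cover counting error only. The fold changes and their counting intervals were tested on simulated counts with a known library ratio, and the other steps were not simulated. Positions are from GENCODE release 29 (GRCh38), where 19571 of 19607 identifiers matched.

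The genes and lists were chosen with earlier results of these data known, and were written from general knowledge, except the pathway annotation, which is the authors'. Named beside the 10 genes are AKT1 and AKT2, ANKRD1, AXL, LATS1, NF2, VGLL4 and, per list, up to 3 rises and 3 falls with at least 20 reads. Others named were chosen after their values were seen, and some genes that the rule names are not reported here. Alternatives were 4 scalings, FPKM plus 0.1, read filters, a 2-fold limit, interval limits, a prior count of 1 and chromosome medians.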

Additional observations from a re-analysis of the deposited data

How the results depend on the processing

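The calls for CYR61 and TEAD3 held under each scaling, under FPKM, a 2-fold limit and the interval limit. TEAD1 stayed past 1.5-fold under the 4 other scalings (1.51 to 1.6) but not in FPKM (1.38 with 0.1 added), with a 2-fold limit or with its interval, and TEAD4 passed in FPKM (log2 value 0.70) and in reads without any scaling (0.67). In FPKM plus 0.1, AMOTL2 was at 0.080 on the log2 scale, and against the median of its chromosome at 1.61 (WWTR1 at 0.31). Of 80 member values over all alternatives, 77 stayed within the counting interval and 3 moved. No called gene changed sign, while WWTR1, which was not called, went from -0.23 to 0.31 against its chromosome median. These values include reads without any scaling, an alternative that was chosen after seeing the data. Of the genes described, 4 differed in the fit reported, and 3 with FPKM, a 2-fold limit or the interval limit.

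With a 2-fold limit, 2390 genes in all passed (1332 higher, 1058 lower), 34 annotated Hippo genes, 6 conserved targets, 5 junctional genes and 1 CCN gene. With the interval wholly past 1.5-fold, the numbers were 2201 (1158 higher, 1043 lower), 35 annotated genes, 6 conserved targets, 2 AP-1 genes, 2 giant cadherins and 1 CCN gene. For other read filters, the counts that follow are again of genes at 1.5-fold. They are given without the number of genes that each filter kept, so no share stands beside them. With at least 10 reads in each library, 2971 genes in all reached 1.5-fold, among them 1 kinase chain gene, 1 giant cadherin and 5 other reported targets. With at least 50 reads together, 3020 genes in all reached it, among them 2 giant cadherins. Without a read filter 5977 genes in all reached it, among them 2 co-regulators and 4 CCN genes. The co-regulators were VGLL2 and VGLL3, with at most 3 reads in either library. The CCN genes added were WISP2 and WISP3, with at most 4. Depth limits CTGF, ANKRD1 and the WISP genes. No paired analysis was possible because with 1 library on either side there are no numbered replicates to match. For the same reason no library could be left out. The causes of these changes were not tested.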

Other observations

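CYR61 also belongs to the genes that serum and growth factors induce within minutes, and a list of 17 such genes was added after the values of CYR61 and the AP-1 genes had been seen. Of these, 6 were higher and 4 lower in Akt1/2 DKO (58.8%, beside 30.9% of all genes), with a median log2 fold change of 0.11. NR4A1, an orphan nuclear receptor, rose from 59 to 571 reads, DUSP1, a phosphatase of MAP kinases, from 53 to 333 and KLF4, a zinc finger factor of epithelia, from 141 to 763. EGR1 fell from 571 to 167 reads, EGR3 from 44 to 1 and KLF6 from 702 to 210, while EGR2 rose from 9 to 62 (6.21-fold, 95% interval 3.07 to 14.2), so the EGR genes moved in both directions.

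YAP is also governed by the actin skeleton. Of 12 genes listed for it, 2 were higher and 1 lower (25%, beside 30.9% of all genes), with a median of -0.28. All 12 had at least 100 reads, and at that depth the share over all genes was 23.2%. ARHGEF2, an exchange factor that activates RHOA, rose from 174 to 846 reads (4.39-fold, 95% interval 3.72 to 5.19), and ARHGAP29, a GTPase-activating protein for RHOA, from 38 to 113. RHOA itself, on chromosome 3, had 6747 and 4928 reads (1.52-fold lower, 95% interval 1.46 to 1.58), and it fell short of 1.5-fold under scaling by total count, upper-quartile scaling and in FPKM, which leaves 2 genes called. Among the annotated pathway genes, the Wnt receptor gene FZD5 rose from 438 to 7386 reads (15.2-fold, 95% interval 13.8 to 16.8). BMP6, a bone morphogenetic protein gene, had 0 and 87 reads and GLI2, a factor of the Hedgehog pathway, 0 and 32. Against the floor of 3 reads they were 26.2-fold and 9.62-fold higher, and the 95% intervals of their read ratios ran from 20.8 and from 7.38 upwards.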
